A study of Rattus norvegicus with 16 samples.

Results

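The genes of the rat major histocompatibility complex (MHC, named RT1 in rats) and of antigen presentation were followed in brain RNA from Pink1-/- and wild-type (WT) rats. A row of the gene count tables was taken when its symbol began with RT1- or was B2m, Cd74, Tap1, Tap2, Tapbp, Ciita, Nlrc5, Psmb8, Psmb9 or Psmb10, and when it held at least 10 counts summed over the libraries of a sex. Of 32754 rows, 54 matched by symbol and 47 passed, among them 28 class I rows, 9 class II rows and the 10 listed genes. The 7 rows under the minimum were RT1-Ha, RT1-DOa, RT1-Db2, RT1-T18, RT1-M5, RT1-P2-ps1 and RT1-M4.

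The animals were 8 months old in every group, and the title of the series places the tissue in the nucleus ambiguus, a medullary cell group with motor neurons for the larynx and pharynx. The groups were male WT (animals 20, 22, 23 and 24), male Pink1-/- (17, 18, 19 and 25), female WT (64, 111, 504 and 980) and female Pink1-/- (548, 602, 736 and 983), with 4 libraries each. Pink1-/- animals lack a working gene for a kinase that marks damaged mitochondria. The labels name no rat strain, substrain or litter for either genotype, so the MHC haplotypes of the animals are not known. Genotype and MHC haplotype therefore cannot be told apart.

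MHC class I molecules carry peptides from inside the cell to the surface for CD8 T cells, and need the light chain encoded by B2m. The peptides are cut by the proteasome, whose immune subunits are Psmb8, Psmb9 and Psmb10, pumped into the endoplasmic reticulum by Tap1 and Tap2, and handed over by tapasin (Tapbp). Class II molecules carry peptides from engulfed material and depend on the invariant chain, encoded by Cd74, and in the brain they are mostly made by microglia, border macrophages and other myeloid cells. Nlrc5 and Ciita are the transactivators of class I and class II genes. The rat carries many class I genes, whose number differs between haplotypes.

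All 47 members were found by symbol among RefSeq genes of the GRCr8 assembly, and 42 of them, with all 37 RT1 rows, lie on chromosome 20. Reading along that chromosome, RT1-N2, RT1-S2, RT1-N3, RT1-S3, RT1-T24-4, RT1-T24-3 and RT1-T24-1 came one after another among the members, before a run from RT1-CE16 to RT1-CE1 that includes RT1-CE6. The class II genes followed, with Tap2, Psmb8, Tap1 and Psmb9 between RT1-DOb and RT1-DMb. Outside chromosome 20, B2m lies on chromosome 3, Ciita on 10, Cd74 on 18, and Nlrc5 and Psmb10 on 19.

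The promoter windows of 4 genes are shown because the results turn on them: RT1-N2 as the class I gene that differed most between genotypes in males, RT1-Da and Cd74 because their levels followed each other across animals, and B2m because its groups did not overlap in either sex. Each runs from 250 bases before to 50 after the annotated start, from RefSeq on GRCr8, on the + strand, at chr20:2646080-2646379, chr20:4515165-4515464, chr18:56526956-56527255 and chr3:129549080-129549379 in that order. Capitals mark matches on either strand to AGCAAC, a core of the X1 box of class II promoters, CCAAT, the interferon-stimulated response element GAAANNGAAA and the gamma-activated site TTCNNNGAA.
RT1-N2: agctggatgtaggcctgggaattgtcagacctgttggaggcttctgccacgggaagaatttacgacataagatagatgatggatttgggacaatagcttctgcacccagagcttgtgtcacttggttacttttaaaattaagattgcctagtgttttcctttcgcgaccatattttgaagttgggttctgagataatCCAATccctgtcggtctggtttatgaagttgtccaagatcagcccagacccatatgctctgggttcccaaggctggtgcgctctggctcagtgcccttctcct
RT1-Da: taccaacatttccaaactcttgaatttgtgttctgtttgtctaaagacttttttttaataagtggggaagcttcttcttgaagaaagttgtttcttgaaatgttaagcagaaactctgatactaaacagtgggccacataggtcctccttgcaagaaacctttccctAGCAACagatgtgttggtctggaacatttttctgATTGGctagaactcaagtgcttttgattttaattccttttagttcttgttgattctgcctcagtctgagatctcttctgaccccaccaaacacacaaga
Cd74: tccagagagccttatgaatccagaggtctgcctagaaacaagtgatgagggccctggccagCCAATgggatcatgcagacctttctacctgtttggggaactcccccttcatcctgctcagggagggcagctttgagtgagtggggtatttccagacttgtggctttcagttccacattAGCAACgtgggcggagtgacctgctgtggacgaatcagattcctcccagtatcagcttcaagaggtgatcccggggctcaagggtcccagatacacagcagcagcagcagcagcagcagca
B2m: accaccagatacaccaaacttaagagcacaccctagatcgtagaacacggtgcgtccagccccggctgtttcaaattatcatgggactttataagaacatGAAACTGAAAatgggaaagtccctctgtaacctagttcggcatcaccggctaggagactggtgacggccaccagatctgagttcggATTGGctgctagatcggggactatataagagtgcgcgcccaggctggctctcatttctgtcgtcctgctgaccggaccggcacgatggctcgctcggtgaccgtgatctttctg

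RT1-Da and Cd74 each hold AGCAAC and CCAAT, B2m holds GAAANNGAAA and CCAAT, and RT1-N2 holds CCAAT, counting matches on both strands. No 2 of these matches overlap. In RT1-Da the AGCAAC match spans bases 168 to 173 of the window and the CCAAT match, on the other strand, bases 202 to 206. Windows were at hand for 33 of the 44 member symbols. AGCAAC was found in 3 of 6 class II windows (RT1-DOb, RT1-Da and RT1-Db1) and in 3 of 19 class I windows, against 14.7% of all 27457 windows. GAAANNGAAA was found in 3 of 19 class I windows (RT1-N3, RT1-S2 and RT1-S3), in all 3 of Tap1, Tap2 and Tapbp, and in Psmb8 and Psmb10, against 3.77% of all windows. CCAAT was found in 13 of 19 class I and 6 of 6 class II windows, against 37.7%, and TTCNNNGAA in RT1-M3-1 and Psmb8 among the members, against 8.68%. These matches describe the letters of the reference assembly, whose haplotype need not be that of the animals.

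Total counts ran from 10959412 to 13691846 in male and from 13875621 to 26570195 in female libraries. Pink1 itself stood at 64.7 to 78.3 CPM (counts scaled to library size after a trimmed mean of M-values, TMM) in male WT, 1.51 to 2.32 in male Pink1-/-, 115 to 137 in female WT and 4.68 to 11.6 in female Pink1-/-. Sex and library processing cannot be told apart here, so levels are compared within a sex. All 8 listed markers of cholinergic motor neurons were detected in each group, with summed levels of 34.2 to 427 CPM. Both extremes were female WT animals, 111 at 34.2 and 504 at 427 CPM, so replicates of a group differed widely in these markers. Markers of lymphocytes were near 0 in every library, at most 0.826 CPM summed over 11 T and natural killer cell genes and at most 0.743 CPM over 6 B cell genes. Near-identical class I genes share reads, which RSEM divides by estimate, so the value of a single RT1 row is uncertain.

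The genotype comparison in males asks which members differ between Pink1-/- and WT, and 2 class I genes rose, RT1-N2 and RT1-CE16, both with few counts. Of the 47 members, 25 had enough counts to be tested in males; 2 rose, 0 fell and 23 did not pass an edgeR quasi-likelihood adjusted p of 0.05 taken over all genes. Across all 13770 genes tested in males, 2.3% were called and 1.08% were called as higher in Pink1-/-. Both called members are class I rows, of 15 class I rows tested. Both passed the count filter through the Pink1-/- libraries, where they are higher, so these counts do not stand for all 47.

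RT1-N2 is a nonclassical class I gene. Its counts in male Pink1-/- 17, 18, 19 and 25 were 16, 23, 11 and 28, and in male WT 20, 22, 23 and 24 they were 0, 1, 0 and 0. The groups do not overlap, and 3 of the 4 WT males had no read for the gene, which allows at most 0.228 to 0.254 CPM (3 counts). Summed over libraries, 78 counts in Pink1-/- stood against 1 in WT, a ratio of 75.6 with an exact 95% interval of 13.2 to 3020 that covers counting error only. The fitted log2 fold change was 5.67 (SE 0.65 and adjusted p = 6.9e-04 in edgeR), a value that depends on how near-zero counts are handled.

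In females the same gene divided the WT animals instead of the genotypes. RT1-N2 counts were 0 in WT 64 and 111, but 88 and 78 in WT 504 and 980. In female Pink1-/- 548, 602, 736 and 983 they were 150, 69, 68 and 152. The female groups overlap, and the log2 fold change of 1.57 (SE 0.84) did not pass (edgeR adjusted p = 0.993). Its interaction of genotype and sex, a log2 difference of -4.31 (SE 2.12, female minus male), did not pass either (edgeR adjusted p = 0.375).

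RT1-CE6, annotated as a long noncoding RNA on GRCr8, was read in a near-opposite set of female animals. It had 39 and 70 counts in WT 64 and 111, and 0 counts in WT 504 and 980 and in all 4 female Pink1-/- libraries, where 3 counts would be 0.118 to 0.207 CPM. Every female library thus had reads for either RT1-N2 or RT1-CE6, and no female library for both. The female row fell under the count filter and was not tested here, while the authors' deposited table lists it with a log2 fold change of -7.94 and a false discovery rate (FDR) of 0.00555. The 2 WT females with reads carried that difference, since the other WT females were at 0 like the Pink1-/- animals.

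Male animals did not keep to that pattern. RT1-CE6 had 22, 26, 21 and 29 counts in male Pink1-/- 17, 18, 19 and 25, the same libraries that held RT1-N2 reads. It had 0, 43, 29 and 1 counts in male WT 20, 22, 23 and 24. Male WT 20 thus had 0 counts of both genes, and WT 24 had 0 and 1. The male log2 fold change of RT1-CE6 was 0.39 (SE 0.71 and adjusted p = 0.747 in edgeR).

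RT1-CE16 is held by 2 rows, and the row with most of the reads (ENSRNOG00000047706) rose in males. Its counts were 34, 20, 16 and 13 in male Pink1-/- 17, 18, 19 and 25, and 0, 6, 7 and 3 in male WT 20, 22, 23 and 24. The groups do not overlap, at 1.58 ± 0.565 CPM (SD, n = 4) in Pink1-/- against 0.315 ± 0.256 CPM in WT. The log2 fold change was 2.29 (SE 0.51 and adjusted p = 0.0434 in edgeR), and the call ended whenever any male library other than Pink1-/- 25 was left out (edgeR adjusted p up to 0.1). In females the counts were 81 and 55 in WT 64 and 111, 2 and 1 in WT 504 and 980, and 14, 8, 25 and 11 in Pink1-/- 548, 602, 736 and 983. Again WT 64 and 111 stood apart from the other WT females. The other row (ENSRNOG00000059770) had at most 7 counts in a library.

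**Figure D1:**
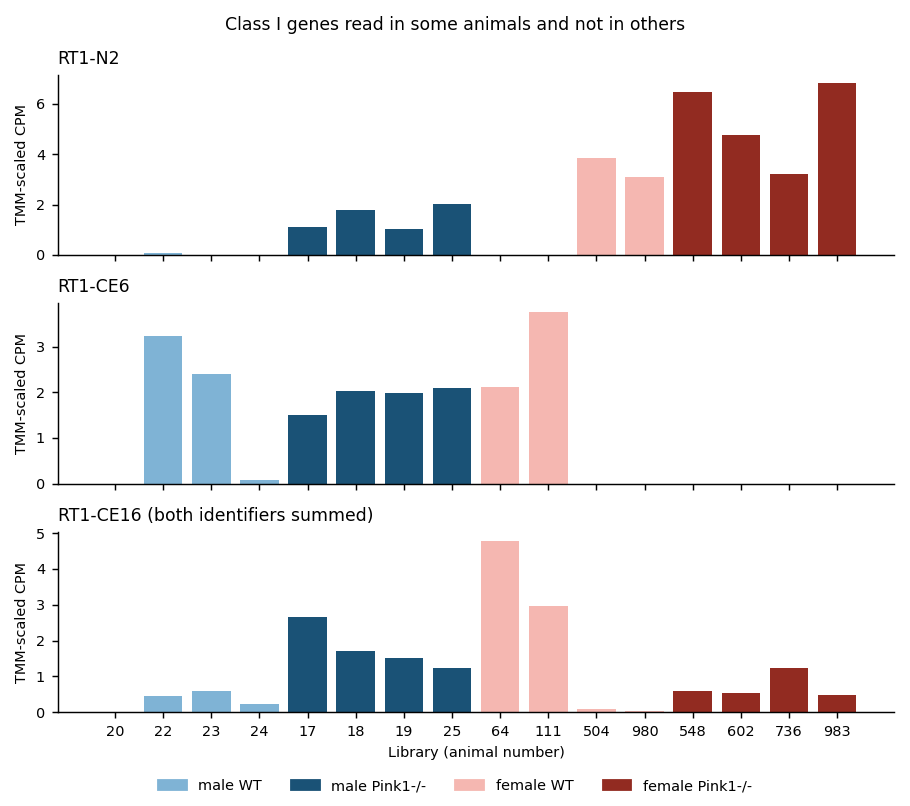
TMM-scaled CPM of RT1-N2, RT1-CE6 and RT1-CE16 (both rows summed) in each of the 16 libraries, named by animal number and coloured by group. Female WT 64 and 111 have RT1-CE6 and the highest RT1-CE16 but no RT1-N2, while male Pink1-/- libraries hold all 3 genes.

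Such on and off patterns, defined as 0 counts in at least 2 libraries of a group and at least 10 in another library of the sex, were met by RT1-N2 in males, 1 of 41 members with at least 10 counts. In females RT1-N2 and RT1-CE6 met it, 2 of 44. Over all genes with at least 10 counts the share was 0.832% in males and 1.08% in females. Gene counts cannot tell a missing or diverged copy from one that is not transcribed.

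Other members of the CE run had fold changes of either sign, and none of those tested passed. RT1-CE4 was 4.50 ± 1.03 CPM in male WT and 2.66 ± 1.02 in male Pink1-/- (log2 fold change -0.74 with SE 0.26, adjusted p = 0.116 in edgeR). In females RT1-CE4 was 5.38, 6.18, 4.02 and 5.41 CPM in WT 64, 111, 504 and 980, and 3.68, 2.07, 2.77 and 3.64 CPM in Pink1-/- 548, 602, 736 and 983. The female groups do not overlap, but the log2 fold change of -0.77 (SE 0.22) did not pass (edgeR adjusted p = 0.639). RT1-CE7 had a log2 fold change of 0.93 (SE 0.29) in males, from 2.06 ± 0.709 to 3.89 ± 1.41 CPM, with overlapping groups and an edgeR adjusted p of 0.0948, and 0.12 in females. RT1-CE5 stood at 0.46 in males (edgeR adjusted p = 0.157) and 0.64 in females (0.993), RT1-CE10 at 0.61 (0.266) and -0.97 (0.993). RT1-CE1 was at 1.20 ± 0.637 CPM in male WT and 0.923 ± 0.306 in male Pink1-/-, a log2 fold change of -0.39 (edgeR adjusted p = 0.526).

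In the run that starts with RT1-N2, the RT1-T24 genes, rat relatives of mouse H2-T24, differed among themselves. RT1-T24-3 was 2.96, 2.03, 2.41 and 1.52 CPM in male WT 20, 22, 23 and 24, and 3.95, 2.65, 3.40 and 3.68 CPM in male Pink1-/- 17, 18, 19 and 25. Its female values were 2.18 to 3.67 CPM in WT and 4.18 to 5.32 CPM in Pink1-/-. The log2 fold changes were 0.63 (SE 0.23 and adjusted p = 0.122 in edgeR) in males and 0.59 (SE 0.19, 0.877) in females, where the groups do not overlap. RT1-T24-1 in females was 0.870, 1.08, 0.786 and 1.14 CPM in WT 64, 111, 504 and 980, and 2.47, 2.07, 1.60 and 1.75 CPM in Pink1-/- 548, 602, 736 and 983. Every Pink1-/- female was above every WT female, with a log2 fold change of 1.02 (SE 0.25 and adjusted p = 0.475 in edgeR). RT1-T24-4 went from 9.63 ± 0.507 to 10.9 ± 0.261 CPM in males without overlap (log2 fold change 0.18, edgeR adjusted p = 0.279), and from 11.7 ± 2.87 to 8.23 ± 0.716 CPM in females (-0.51, 0.865).

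RT1-S3, in the same run, showed the smallest p of the female members. It was 12.7, 11.4, 9.65 and 7.89 CPM in WT 64, 111, 504 and 980, and 6.23, 5.37, 5.55 and 7.10 CPM in Pink1-/- 548, 602, 736 and 983. The female groups do not overlap, and the log2 fold change was -0.77 (SE 0.17 and adjusted p = 0.313 in edgeR). DESeq2 called RT1-S3 in females (log2 fold change -0.77, adjusted p = 0.0123), 1 of 58 genes called there. The authors' deposited table gives an FDR of 0.0279. In males RT1-S3 was 4.52 ± 0.884 CPM in WT and 4.58 ± 0.678 CPM in Pink1-/-, and the difference between the sexes did not pass (log2 -0.78, SE 0.25, edgeR adjusted p = 0.218).

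None of the remaining class I genes with at least 1 CPM in a sex passed. The classical class I gene RT1-A2 stood at a log2 fold change of -0.12 in males and -0.39 in females (edgeR adjusted p = 0.62 and 0.991), and RT1-A1 at 0.21 and -0.18. RT1-M3-1, whose mouse relative H2-M3 presents formylated peptides, stood at 0.32 in males (edgeR adjusted p = 0.163) and 0.03 in females. RT1-N3 stood at 0.10 and -0.30. The pseudogene RT1-M1-1-ps was too low to test and had 0.0109 ± 0.0218 CPM in female WT and 0.229 ± 0.160 CPM in female Pink1-/-, without overlap.

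Summed over the 28 class I rows, which lessens the effect of how reads are divided, male WT 20, 22, 23 and 24 had 45.9, 48.2, 45.2 and 43.8 CPM. Male Pink1-/- 17, 18, 19 and 25 had 57.7, 52.5, 52.5 and 59.7 CPM, all above the WT males, a log2 ratio of means of 0.28. Female WT 64, 111, 504 and 980 had 77.7, 76.6, 60.8 and 59.2 CPM and female Pink1-/- 548, 602, 736 and 983 had 61.8, 61.4, 54.2 and 62.8 CPM, a log2 ratio of -0.19. The WT females 64 and 111 were again the high ones, and WT 504 and 980 lay within the Pink1-/- range. No p is given for sums over the chosen members.

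B2m, the light chain of class I molecules, was lower in Pink1-/- in both sexes without overlap but did not pass the test. Male WT 20, 22, 23 and 24 had 299, 302, 296 and 297 CPM, and male Pink1-/- 17, 18, 19 and 25 had 219, 260, 256 and 282 CPM. Female WT 64, 111, 504 and 980 had 150, 135, 172 and 134 CPM, and female Pink1-/- 548, 602, 736 and 983 had 123, 114, 124 and 124 CPM. The log2 fold changes were -0.23 (SE 0.08 and adjusted p = 0.113 in edgeR) in males and -0.29 (SE 0.09, 0.719) in females. In males B2m and the class I sum thus lay on opposite sides. The difference between the sexes in B2m was -0.05 on the log2 scale (SE 0.12 and adjusted p = 0.882 in edgeR).

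**Figure D2:**
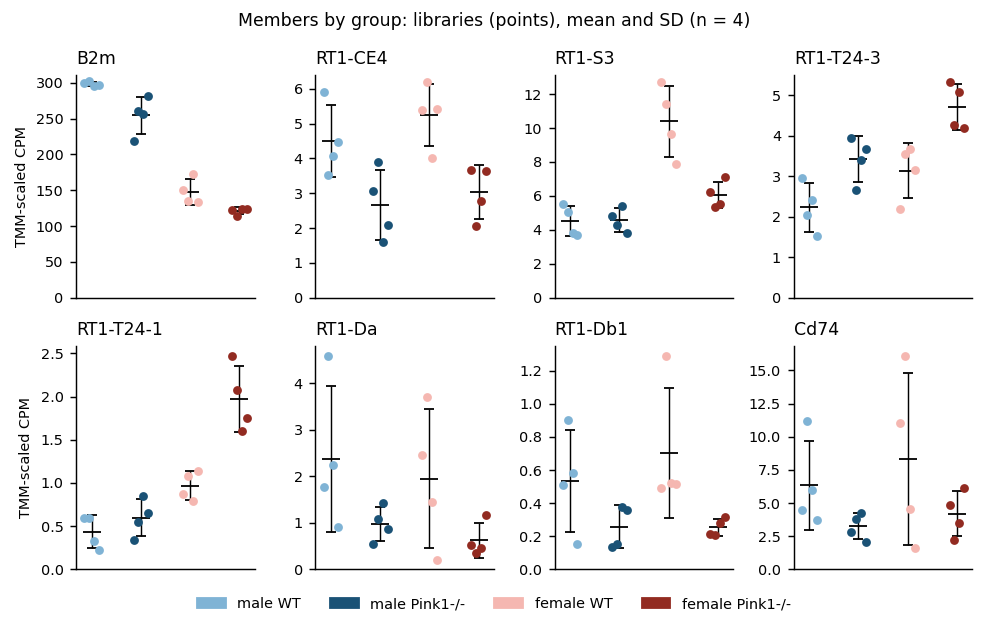
TMM-scaled CPM of 8 members in each group, with libraries as points and mean ± SD (n = 4) as bars; each panel has its own scale from 0. B2m lies lower in Pink1-/- in both sexes without overlap, and WT animals of both sexes differ widely in RT1-Da and Cd74.

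The class II genes RT1-Da and RT1-Db1 and the invariant chain gene Cd74 had lower mean levels in Pink1-/- brains of both sexes, with WT animals that differed widely among themselves. Log2 fold changes of the other tested class II rows ran from -0.03 to 0.56 in males and from -0.67 to 0.85 in females. In edgeR, 0 of 4 tested class II rows in males and 0 of 7 in females passed, beside 2.3% and 0.059% of all genes. At an unadjusted p under 0.05 there were 1 in males and 2 in females, beside 26.2% and 4.64% of all genes tested. RT1-Db1, among those 2 in females, passed the count filter only through the WT libraries. DESeq2 called 0 class II rows in females and gave the 4 tested in males no adjusted p, so it could call none of these. RT1-Da encodes the alpha chain of the rat class II molecule related to human HLA-DR. RT1-Da was 1.78, 4.58, 2.24 and 0.912 CPM in male WT 20, 22, 23 and 24, and 0.545, 1.09, 1.42 and 0.865 CPM in male Pink1-/- 17, 18, 19 and 25. In females it was 2.45, 3.71, 1.44 and 0.197 CPM in WT 64, 111, 504 and 980, and 0.519, 0.344, 0.470 and 1.17 CPM in Pink1-/- 548, 602, 736 and 983. The groups overlap in both sexes, through WT 24 and WT 980. The log2 fold changes were -1.31 (SE 0.45 and adjusted p = 0.114 in edgeR) in males and -1.57 (SE 0.68, 0.993) in females.

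Cd74 varied in the same animals. It was 4.49, 11.2, 5.98 and 3.72 CPM in male WT 20, 22, 23 and 24, and 2.79, 3.82, 4.25 and 2.09 CPM in male Pink1-/- 17, 18, 19 and 25. In females it was 11.0, 16.1, 4.59 and 1.62 CPM in WT 64, 111, 504 and 980, and 4.85, 2.20, 3.53 and 6.15 CPM in Pink1-/- 548, 602, 736 and 983. WT 22 and WT 111 were the highest of their sex, and the groups overlap. The log2 fold changes were -0.99 (SE 0.33 and adjusted p = 0.107 in edgeR) in males and -0.96 (SE 0.56, 0.993) in females. DESeq2 called the male difference of Cd74 (log2 fold change -0.98, adjusted p = 0.0454), 1 of 844 genes called there. The authors' deposited table gives an FDR of 0.0393.

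Across the 8 animals of a sex, Cd74 and RT1-Da followed each other on the log2(CPM + 0.5) scale. In males Pearson's r was 0.94 (exact permutation p = 0.00193, adjusted over 8 relations 0.00774) and Spearman's rho 0.98 (exact permutation p = 4.0e-04, adjusted 0.00317), and r was 0.97 without the 2 animals farthest from the median of Cd74 (22 and 25). In females r was 0.95 (exact permutation p = 5.0e-04, adjusted 0.00397) and rho 0.93 (exact permutation p = 0.00223, adjusted 0.00893), and r was 0.88 without 111 and 980. With RT1-Db1, a class II beta chain gene, r was 0.77 in males (exact permutation p = 0.0319, adjusted 0.0851; rho 0.86, p = 0.0107, adjusted 0.0286) and 0.63 in females (exact permutation p = 0.117, adjusted 0.187; rho 0.38, p = 0.36, adjusted 0.48). With RT1-Ba, a class II alpha chain gene, r was 0.73 and 0.50 (exact permutation p = 0.103 and 0.2, adjusted 0.187 and 0.267; rho 0.43 and 0.57, p = 0.299 and 0.151, adjusted 0.479 and 0.302). Without those animals r was 0.87 and 0.64 for RT1-Db1, and 0.57 and 0.74 for RT1-Ba. With the summed microglial markers r was -0.21 in males and -0.02 in females (exact permutation p = 0.568 and 0.972, adjusted 0.649 and 0.972; rho -0.33 and -0.10, p = 0.428 and 0.84, adjusted 0.489 and 0.84), and without those animals -0.91 and 0.36. All these values take both genotypes together, so the lower Pink1-/- means of Cd74 and RT1-Da enter their r, rho and p. The relations were chosen after values were seen, which the adjustment over 8 relations does not cover. The 4 libraries of a group are too few for a value within each genotype.

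Summed cell markers were compared beside these values. Of 9 perivascular macrophage and monocyte markers, 7 were detected in males (Ccr2 and Ly6c at 0) and 8 in females (Ly6c at 0). Their summed level was 23.0 to 26.2 CPM in male WT and 13 to 15.5 CPM in male Pink1-/-, without overlap, and 13.7 to 32.3 against 17.7 to 21.9 CPM in females. That list holds genes already known to be lower in these male animals when it was drawn up. In female WT 64, 111, 504 and 980 its sums were 26.2, 32.3, 13.7 and 20.1 CPM. Cd74 in the same animals was 11.0, 16.1, 4.59 and 1.62 CPM. Among female Pink1-/- animals, 983 had the lowest sum, 17.7 CPM, and the highest Cd74, 6.15 CPM. The relation of this list to Cd74 was not tested. The 5 meningeal and fibroblast markers, all detected, summed to 22.9 to 30.9 CPM in male WT and 13.1 to 16.3 CPM in male Pink1-/-, and to 8.74 to 16.1 and 11.1 to 15.4 CPM in females. The 11 microglial markers, all detected, overlapped, at 136 to 189 and 157 to 191 CPM in males and 176 to 244 and 179 to 231 CPM in females. Dendritic cell markers summed to 23.2 to 25.8 and 20.7 to 24.7 CPM in male WT and Pink1-/- (5 of 7 detected, Xcr1 and Cd209a at 0), and to 37.9 to 43.1 and 38.6 to 40.5 CPM in females (7 of 7 detected). The 4 blood markers, all detected, summed to 38.2 to 103 CPM in male WT, 35.7 to 68.3 in male Pink1-/- and 94.0 to 114 in female WT. Female Pink1-/- 983 stood apart at 501 CPM, against 84.1 to 96.9 in the other Pink1-/- females, and also had the highest Cd74, RT1-Da, RT1-Db1 and RT1-Ba of its group. Without it the female log2 fold changes were -1.22 for Cd74, -2.08 for RT1-Da and -1.54 for RT1-Db1, and the edgeR adjusted p was 1 for each. Leaving out each female library in turn gave -0.43 to -1.31 for Cd74, -1.06 to -2.08 for RT1-Da and -0.97 to -1.54 for RT1-Db1. The smallest difference of each gene came without WT 111. The part of these cells in the class II values was not tested, and in bulk tissue fewer cells of a type and less RNA per cell cannot be told apart.

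**Figure D3:**
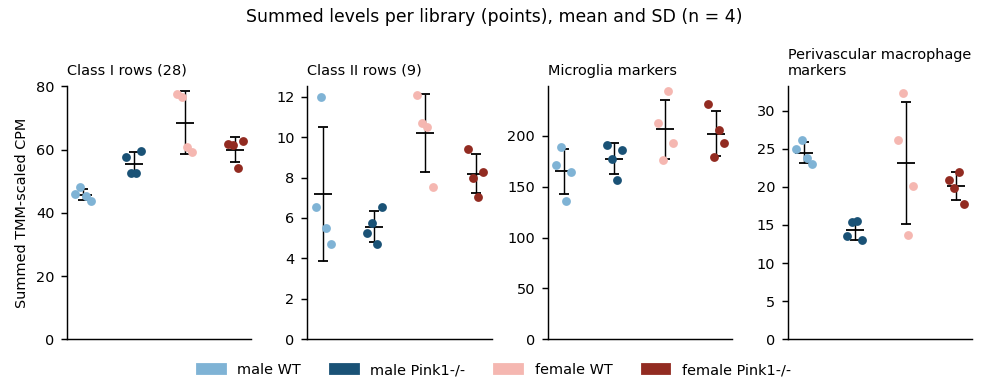
Summed TMM-scaled CPM per library of the 28 class I rows, the 9 class II rows, 11 microglial and 9 perivascular macrophage and monocyte markers, with mean ± SD (n = 4). In males the class I sums of Pink1-/- lie above those of WT without overlap, while the class II and microglial sums overlap; the macrophage list holds genes known beforehand to be lower in male Pink1-/-.

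Summed over the 9 class II rows, male WT 20, 22, 23 and 24 had 6.52, 12, 5.48 and 4.71 CPM and male Pink1-/- 17, 18, 19 and 25 had 5.24, 5.76, 4.73 and 6.56 CPM. The male log2 ratio of means was -0.36 and became 0.0 without WT 22. Female WT 64, 111, 504 and 980 had 12.1, 10.7, 10.5 and 7.54 CPM and female Pink1-/- 548, 602, 736 and 983 had 9.39, 7.99, 7.05 and 8.27 CPM, a log2 ratio of -0.32. WT 980 lay within the range of the female Pink1-/- animals.

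RT1-Db1 in females was 0.490, 1.29, 0.524 and 0.513 CPM in WT 64, 111, 504 and 980, and 0.216, 0.207, 0.282 and 0.314 CPM in Pink1-/- 548, 602, 736 and 983. The groups do not overlap, and the log2 fold change was -1.41 (SE 0.44 and adjusted p = 0.767 in edgeR). The row passed the count filter only through the WT libraries, where it was higher. In males RT1-Db1 was too low to test, at 0.535 ± 0.307 CPM in WT and 0.258 ± 0.129 CPM in Pink1-/-. RT1-Ba and RT1-Bb were tested in neither sex, and RT1-DOb stood at -0.19 in females.

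RT1-DMa and RT1-DMb encode the chains of the molecule that loads peptides onto class II, and each has 2 rows in the tables. For RT1-DMa the reads changed rows from animal to animal among females. The first row (ENSRNOG00000047854) held 100%, 23.1%, 67.5% and 91.5% of the RT1-DMa counts in female WT 64, 111, 504 and 980, and 52.0%, 97.9%, 1.43% and 50.6% in female Pink1-/- 548, 602, 736 and 983. The Wilson 95% interval was 0.253% to 7.66% in Pink1-/- 736, with 1 of 70 counts, and 95.1% to 100% in WT 64, with 75 of 75. Both rows together gave 2.80 to 4.98 CPM in females, so the sum varied far less than the split. In males the first row held 94.9% of 156 counts, and the sum ran from 0.913 to 2.45 CPM.

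The 2 RT1-DMb rows did not trade places in this way. The row ENSRNOG00000049491 held 43.0% of 474 counts over the females, from 36.6% in Pink1-/- 983 to 47.5% in WT 980, and 42.6% of 183 counts over the males. The Wilson 95% intervals of those 2 females, 23.6% to 51.9% and 35.5% to 59.8%, overlap. Log2 fold changes of the DMa and DMb rows ran from -0.67 to 0.85 in females and from -0.03 to 0.56 in males, and none of these passed (edgeR adjusted p at least 0.264). For RT1-DMa the female fold changes of single rows follow the split.

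**Figure D4:**
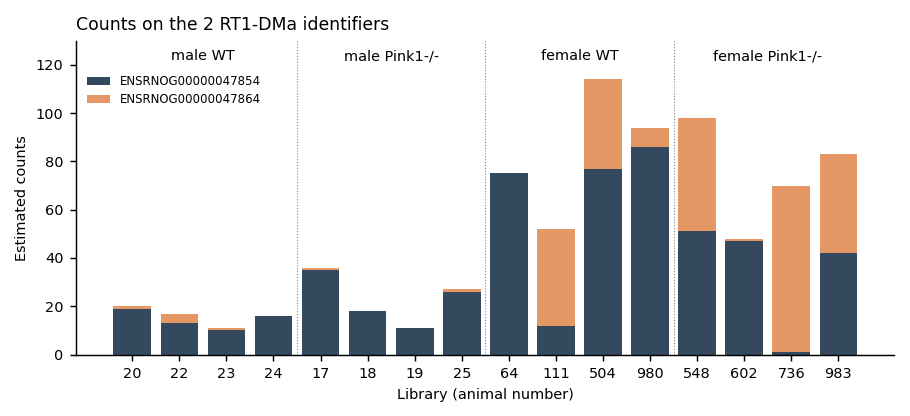
Estimated counts on the 2 RT1-DMa rows, stacked, for each library named by animal number. In females the reads sit on the first row in WT 64 and Pink1-/- 602, on the second in Pink1-/- 736 and on both in WT 504, Pink1-/- 548 and 983.

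No difference between genotypes was detected in the processing genes. In edgeR 0 of the 4 tested in males and 0 of the 6 in females passed, beside 2.3% and 0.059% of all genes tested. At an unadjusted p under 0.05 there were 0 in either sex, beside 26.2% in males and 4.64% in females. These genes are too few to set against those shares. DESeq2 called 0 of them and gave Psmb8 in males no adjusted p. The peptide pump gene Tap2 was 1.27, 2.03, 0.0 and 2.43 CPM in male WT 20, 22, 23 and 24 and 4.15, 2.88, 0.945 and 2.31 CPM in male Pink1-/- 17, 18, 19 and 25. Its male log2 fold change of 0.85 (SE 0.58 and adjusted p = 0.362 in edgeR) stood beside 0.03 (SE 0.14, 0.995) in females, where it ran from 7.92 to 11.7 CPM. Tap1, the partner subunit, was too low to test in males and stood at -0.09 in females, and Tapbp at 0.02 in males and 0.0 in females. The immune proteasome subunits Psmb8 and Psmb10 stood at 0.66 and 0.23 in males and -0.15 and 0.16 in females, and Psmb9 at 0.19 in females. The transactivators Nlrc5 and Ciita were under the filter in males and stood at -0.24 (SE 0.22) and 0.18 (SE 0.36) in females, with edgeR adjusted p of 0.993 and 0.995.

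**Figure D5:**
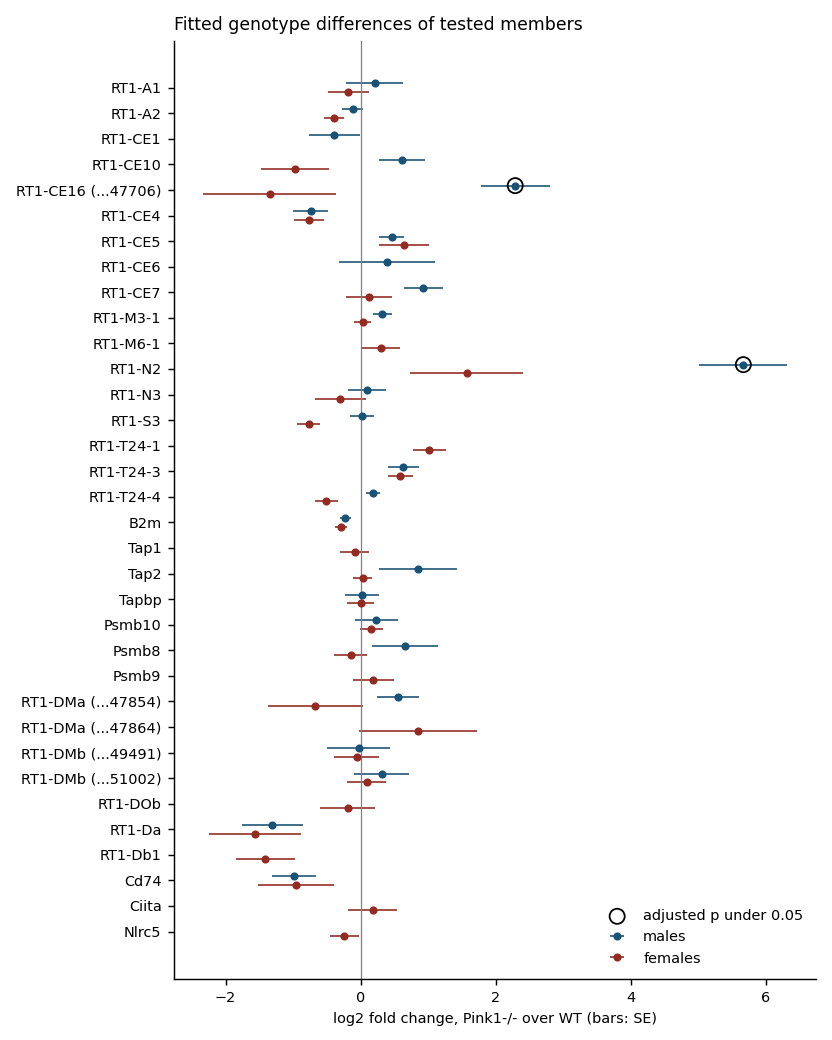
Fitted log2 fold change (Pink1-/- over WT) with SE for each tested member, males in blue and females in red, ordered by class I, B2m, loading, proteasome, class II, Cd74 and transactivators. Black circles mark the 2 members with an adjusted p under 0.05, RT1-N2 and RT1-CE16 in males.

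At an unadjusted p under 0.05, 10 of 25 tested members differed in males, 6 higher and 4 lower in Pink1-/-, against 26.2% of all genes tested. Among tested members, the male groups did not overlap for 3 on the higher side (RT1-N2, RT1-CE16 and RT1-T24-4) and 1 on the lower side (B2m), against 7.15% and 8.04% of all genes. The median log2 fold change of the 25 members was 0.23, beside 0.01 over all genes. RT1-N2 and RT1-CE16 passed that filter through the Pink1-/- libraries, so the counts of tested members do not stand for all 47.

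In females 0 of 32 tested members were called in edgeR, against 0.059% of 15265 genes. DESeq2 called 1 member, RT1-S3, among 58 genes called in all. At an unadjusted p under 0.05, 9 differed, 2 higher and 7 lower, against 4.64% of all genes. Among tested members, the groups did not overlap for 2 on the higher side (RT1-T24-1 and RT1-T24-3) and 4 on the lower side (B2m, RT1-CE4, RT1-S3 and RT1-Db1), against 1.62% and 1.76% of all genes. Of these 6, 4 are class I rows. RT1-Db1 passed the count filter through the WT libraries, so the counts of tested members do not stand for all members. The median log2 fold change of the 32 members was -0.12, beside 0.0 over all genes.

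Of 23 members tested in both sexes, 15 had the same sign (65.2%; 9 higher and 6 lower), beside 55.8% of 13585 genes. The interaction of genotype and sex called 0 of 32 members in edgeR, against 0.0798% of 15042 genes, and 0 in DESeq2, which gave 19 of the 32 no adjusted p. At an unadjusted p under 0.05 there were 5 (RT1-S3, RT1-T24-4, RT1-CE16, RT1-CE10 and RT1-CE6, with edgeR adjusted p from 0.205 to 0.300), a share near the 14.0% of all genes.

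The authors' deposited tables list 25 members in males, 4 of them with an FDR under 0.05, and 28 in females, 2 of them. They hold 13828 genes in males and 14604 in females. The share of all these genes under that FDR was not computed, so the member counts have no background here. In those tables male RT1-N2 has a log2 fold change of 5.66 (FDR 2.0e-11), RT1-CE16 2.29 (6.8e-04), Cd74 -0.98 (0.0393) and RT1-CE7 0.92 (0.0396). The female ones are RT1-CE6 and RT1-S3.

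In 9 lists of related genes, 0 genes were called by edgeR in either sex, beside 2.3% of all genes in males and 0.059% in females. DESeq2 called Fcgrt (1 of 3 tested in its list), Erap1 (1 of 10) and Cd74 (1 of 8) in males. Among neighbours of the complex it called Ddr1 and Gabbr1 in males (2 of 58) and Mdc1 in females (1 of 65). In all it called 844 genes in males and 58 in females, of the 13770 and 15265 that passed the count filter. These hits are not read as a result about the lists. Of 10 tested genes of peptide loading and trimming, 3 had an unadjusted p under 0.05 in males and 0 of 11 did in females, beside the same 26.2% and 4.64% of all genes, with median log2 fold changes of -0.11 and 0.0. Erap1, which trims peptides for class I, was 34.1 ± 2.03 CPM in male WT and 27.2 ± 3.15 CPM in male Pink1-/- (log2 fold change -0.33, SE 0.10, edgeR adjusted p = 0.0797), and the chaperone Hspa5 stood at -0.27 (0.145). In females Canx and Tapbpl stood at -0.08 and 0.17.

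Among class I-like genes outside the complex, 2 of 3 tested in males and 0 of 5 in females had an unadjusted p under 0.05, beside 26.2% and 4.64% of all genes, and these are too few to set against those shares. Mr1, which presents vitamin B metabolites, was 1.99 to 2.45 CPM in male WT and 0.649 to 1.57 CPM in male Pink1-/-, without overlap (log2 fold change -1.09, SE 0.28, edgeR adjusted p = 0.062). Fcgrt, the neonatal Fc receptor, was 2.91 to 5.17 CPM in male WT and 5.58 to 8.99 CPM in male Pink1-/-, also without overlap (0.72, SE 0.20, 0.0739). In females Fcgrt stood at 0.20 and Procr at -0.56.

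The lists of proteasome genes, class II processing, transactivation, interferon gamma signalling and co-stimulation had 0 to 2 genes each at an unadjusted p under 0.05 in males, where 26.2% of all genes did, and 0 in females, where 4.64% did. In males these were 1 of 5 immunoproteasome genes and activators (Psme3 -0.18), 1 of 3 constitutive catalytic subunits (Psmb5 0.26, with Psmb6 at 0.19) and 1 of 8 class II processing genes (Cd74, with Ctsd at 0.19). They were 2 of 7 transactivation genes (Creb1 -0.39 and Rfxank 0.60), 2 of 10 interferon gamma genes (Jak2 -0.24 and Ifngr1 0.28) and 0 of 4 co-stimulation genes (Cd86 -0.54 and Cd274 0.04). In females the counts were 0 of 6, 0 of 3, 0 of 9, 0 of 10, 0 of 10 and 0 of 4. Female log2 fold changes of the 2 genes with the smallest p were -0.11 for Psme3 and 0.16 for Psmb10, -0.18 for Psmb7 and -0.11 for Psmb5, -0.25 for Lgmn and -0.96 for Cd74, and -0.24 for Nlrc5 and 0.12 for Nfya. For Jak1, Jak2, Icoslg and Cd274 they were -0.18, 0.14, 0.25 and -0.12. Median log2 fold changes of these 6 lists lay between -0.07 and 0.19 in males and between -0.12 and 0.02 in females.

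Genes of other function that neighbour the complex had 19 of 58 at an unadjusted p under 0.05 in males, beside 26.2% of all genes, and 4 of 65 in females, beside 4.64%. The median log2 fold change was 0.26 in males and 0.0 in females. The GABA receptor gene Gabbr1 was 328 ± 10.4 CPM in male WT and 387 ± 14 CPM in male Pink1-/- (log2 fold change 0.24, SE 0.07, edgeR adjusted p = 0.0702), and Vars stood at 0.38 (0.0932). In females Mdc1, a DNA damage mediator, was 20.3 to 21.7 CPM in WT and 14.6 to 16.3 CPM in Pink1-/-, without overlap (log2 fold change -0.45, SE 0.08, edgeR adjusted p = 0.169), and complement C2 stood at -0.50 (0.993).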

How the data were processed

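Brain RNA of 16 rats was measured by RNA sequencing. Per the labels' protocols, RNA came from flash frozen tissue extracted with a Bio-Rad Aurum kit for fatty and fibrous tissue, and libraries were made with an Illumina TruSeq RNA kit. Strandedness, aligner and genome build were not given in the sources used here. As deposited by the authors, there is a table per sex of estimated counts per Ensembl gene, made with RSEM, already whole numbers and used unchanged. The submitters' processing notes name RSEM, with no version, and edgeR 3.9. RSEM divides reads between near-identical genes, so single RT1 rows are uncertain. Per the file headers, the authors' comparison tables, 1 per sex, give log2 fold changes and log2 CPM, each with a likelihood ratio (a score), p-value and false discovery rate (FDR). Columns were matched to the labels by animal number, with 0 per-sample columns unused. Libraries were taken as separate animals because these numbers differ; p-values measure the spread between them.

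Each sex was fitted over all genes with edgeR 4.0.16 in R 4.3.3 (quasi-likelihood test, trimmed mean of M-values, filterByExpr with a minimum count of 10 and a minimum total of 15, Benjamini-Hochberg over all genes, called under 0.05). Standard errors (SE) are the absolute log2 fold change over the root of the F statistic. The interaction used all 16 libraries. The fit was tested on simulated data with changes planted in well-counted genes only, so that test does not cover rows with few counts. Levels are TMM-scaled CPM, with SD over 4 libraries. Intervals of counts and shares, and the limit of 3 counts for a 0, cover counting error only. Correlations used log2(CPM + 0.5), exact 2-sided permutation of the pairing and 8 relations, and were chosen after values were seen. Class II covers RT1-B, D, DM, DO and H symbols, and other RT1- symbols count as class I. Alternatives were RLE size factors, library totals, no filter, a mean of at least 1 CPM, DESeq2 1.42.0, an adjusted p under 0.10, rows sharing a symbol summed, 1 surrogate variable (sva 3.50.0), 16 libraries in a single fit, sums without pseudogene rows, and each library left out. An adjusted p that DESeq2 gave as NA was kept as NA.

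Named were the 10 listed genes and each RT1 row that was called, had no overlap between genotypes, had a mean of at least 1 CPM in a sex or was at 0 in at least 2 libraries of a group with 10 or more counts in another. From each pathway list the 2 genes with the smallest p were named. The members and lists were chosen with earlier results of these data known.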

Additional observations from a re-analysis of the deposited data

Results flagged for a closer look

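Over 32 members, 127 groups of 4 libraries were examined for a library far from the other 3 (TMM-scaled CPM), and 7 were marked, where chance marks about 5% of groups. In female Pink1-/- animals, 602 had 15.7 CPM of RT1-M3-1, against 11.0 to 11.7 in the others. The same animal had 114 CPM of B2m, against 123 to 124, and the female B2m groups do not overlap with or without it. Female Pink1-/- 736 had 1.18 CPM of RT1-CE16 (ENSRNOG00000047706), against 0.494 to 0.606. Female WT 111 had 1.29 CPM of RT1-Db1, against 0.490 to 0.524. In males, WT 23 had 2.16 CPM of RT1-CE1, against 0.846 to 0.912, and Pink1-/- 19 had 3.12 CPM of RT1-A2, against 4.04 to 4.22. Male WT 22 had 0.075 CPM of RT1-N2, a single read, with the other WT males at 0.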

How the results depend on the processing

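Of the 2 members called in males, only RT1-N2 was called with 1 surrogate variable and with library totals as the scaling. DESeq2 called neither, giving RT1-N2 and RT1-CE16 no adjusted p, and called Cd74 instead. In males 0 were called with all 16 libraries in 1 fit, and 0 with a mean of at least 1 CPM, a filter that removes both genes. With a library left out the male count ran from 1 to 2. RT1-N2 kept its call with each male library left out (edgeR adjusted p 8.0e-04 to 0.0071) and lost it with all 16 libraries in a single fit (0.0581). RT1-CE16 lost its call with 1 surrogate variable (edgeR adjusted p = 0.415), 16 libraries in a single fit (0.176), library totals (0.0654) and 7 of 8 left-out libraries; the cause was not tested. In females 1 was called with DESeq2. Members without overlap between genotypes numbered 3 to 6 higher and 1 to 3 lower in males with a library left out, and 2 to 4 higher and 4 to 7 lower in females; library totals left 2 lower in females. Over the settings tried, the summed class I log2 ratio ran from 0.24 to 0.31 in males and from -0.13 to -0.26 in females. The class II ratio ran from -0.23 to -0.44 in females. In males it ran from 0.0 without WT 22 to -0.52 without WT 24, so the male class II difference rested on WT 22. No called value changed sign (0 reversed). Few reads limit most RT1 rows: 22 members were too low to test in males and 15 in females.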
